A study of Rattus norvegicus with 14 samples.

Results

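The miR-29 family comprises 7 of the 350 rat microRNA (miRNA) rows of an islet array table, chosen by name: rno-miR-29a, rno-miR-29b and rno-miR-29c, and the minor strands (marked with a star) miR-29a*, miR-29b-1*, miR-29b-2* and miR-29c*. The series measured miRNAs in pancreatic islets of female rats, with 4 arrays from control females and 4 from females on day 14 of gestation, labelled in 1 colour from total RNA. A second set of arrays, on INS832/13 beta cells given an anti-miR against miR-338 or a scrambled one, carries messenger RNA values and was not used here. Arrays of 1 group are biological replicates by their labels, which do not state strain, age or how many animals went into a preparation. P-values therefore measure only how these 8 arrays vary, and their number limits the precision. Islets hold endocrine cells beside vessel, stromal and blood cells, and in such bulk RNA fewer cells of a type and less RNA per cell cannot be told apart.

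A miRNA is cut from a hairpin whose 2 arms give a guide strand, which is loaded into Argonaute and pairs with messenger RNAs through its seed (bases 2 to 8), and a minor strand, which is mostly degraded. The miR-29 guides come from the 3′ arm and, in mammals, from a pair of short gene clusters, so the family can be made from either locus. In fibroblasts they lower collagens and other matrix proteins. In mouse islets miR-29a and miR-29b repress Slc16a1 (Mct1), a monocarboxylate transporter that beta cells normally keep very low, and raised miR-29 impairs insulin secretion in cultured beta cells.

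The mature sequences are shown because they set what a probe can tell apart. All 7 rows were matched to RefSeq sequences of the GRCr8 assembly, with the older array names read as the newer arm names. Bases 2 to 8 are in capitals.
miR-29a: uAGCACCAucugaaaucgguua
miR-29b: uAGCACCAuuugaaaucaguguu
miR-29c: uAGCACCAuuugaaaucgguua
miR-29a*: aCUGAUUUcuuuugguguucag
miR-29b-1*: uUUCAUAUggugguuuagauuu
miR-29b-2*: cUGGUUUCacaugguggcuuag
miR-29c*: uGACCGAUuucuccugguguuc

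The 3 guides share 1 seed, and among 692 distinct rat mature sequences in the RefSeq table no others carry it. The 4 minor strands have 4 different seeds. Counted from 1 at the 5′ end, miR-29a and miR-29c differ at 1 of 22 bases, C10U, with the base of miR-29a first. MiR-29c and miR-29b differ at 3 of the same 22 positions, G18A, U21G and A22U, and miR-29b is 1 base longer. Whether the probes of guides this similar bind each other's targets was not measured, so how separate the 3 guide signals are is not known. Only miR-29b ends in AGUGUU, a hexamer that in human cells directs miR-29b to the nucleus. It occurs in 8 (1.16%) of the 692 mature sequences.

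In GRCr8 the hairpins of miR-29a (chr4:60617955-60618042) and miR-29b-1 (chr4:60618334-60618414) lie on the minus strand with 291 bases between them. Those of miR-29b-2 (chr13:109098831-109098911) and miR-29c (chr13:109099359-109099446) lie on the plus strand with 447 bases between them, both within the span of the long noncoding RNA gene LOC102550527. Both miR-29b hairpins give the same mature miR-29b, so its signal cannot be assigned to a locus. RefSeq also lists Mir3556a and Mir3587 over the first pair and Mir3556b over miR-29c. The miR-29c hairpin is printed because it is the only one whose strands were both detected on every array, and its capitals mark the minor strand (first) and the guide.
pre-miR-29c: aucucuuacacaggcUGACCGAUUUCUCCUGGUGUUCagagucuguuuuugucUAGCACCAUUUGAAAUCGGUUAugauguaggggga

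Summed signals of 148467 to 229760 and 157 to 188 miRNAs flagged as detected were found per array. To bring the arrays to a common level, the 75th percentile of the 153 miRNAs detected throughout was set equal on each of them. The resulting scaled signals have no unit. Signals of different probes depend on probe affinity as well as abundance, so orders and shares of signal below describe signals, not molecules. The tissue label was set against an endocrine list of 13 miRNAs, of which 10 were tested and miR-184, miR-9 and miR-124 were detected on no array; its summed scaled signal was 31196 to 36845 in control and 27188 to 34843 in pregnant islets. Pregnant replicate 2 stood apart in leukocyte markers and control replicate 2 in stromal markers. The 7 leukocyte miRNAs on the array summed to 5493 in pregnant replicate 2 and to 697 to 1133 on the other 7 arrays, with miR-142-3p, a blood-cell miRNA, at a log2 scaled signal of 11.85 there. The 8 stromal and smooth muscle rows summed to 7613 in control replicate 2, against 1747 to 2555 in the other control arrays and 1049 to 2105 in pregnant islets, and miR-10a-3p was detected on no array. MiR-143 alone gave 6189 of that 7613, against 595 to 1611 on the other arrays. The mean log2 scaled signal of the 6 tested stromal miRNAs was 8.44 in control replicate 2. It was 7.85 in pregnant replicate 2 and 6.44 to 7.60 on the other arrays. The 2 acinar rows, of which miR-217 was detected on no array, summed to 115 to 314 in control islets. In pregnant replicates 1 to 4 they summed to 27.5, 243, 27.0 and 193. The members' log2 changes are given with and without pregnant replicate 2 and control replicate 2, as are their correlations, an addition made after seeing the data.

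The guides gave some of the brightest signals in these islets. MiR-29b had the second highest signal of 350 on 7 arrays and the third on pregnant replicate 3. MiR-29a held rank 9 on each of the 8 arrays, and miR-29c ranks 12 to 18. Together the 3 guides made up 13.2% ± 0.666 (SD, n = 4) of the summed signal in control islets and 12.2% ± 0.20 (SD, n = 4) in pregnant islets. The control values of 12.2% to 13.6% and the pregnant values of 11.98% to 12.4% overlapped, through control replicate 2.

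Of the minor strands, 1 was detected throughout. MiR-29c* was detected on all 8 arrays at ranks 77 to 100. MiR-29a* was flagged as detected on 2 arrays, control replicate 3 and pregnant replicate 4, and its unscaled signal of 4.83 to 11.6 was below the negative control feature of the same array on all 8. That feature read 16.7 to 65.7 unscaled. Lying below it does not by itself mark a row as undetected. For example, let-7d*, detected on all 8 arrays, had mean scaled signals of 13.9 in control and 15.8 in pregnant islets. MiR-29b-1* and miR-29b-2* were detected on no array, with unscaled signals of at most 1.74 and 1.00, so their levels are only bounds. The miR-29c hairpin was thus the only one of the 4 for which a strand ratio could be formed on every array.

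**Figure D1:**
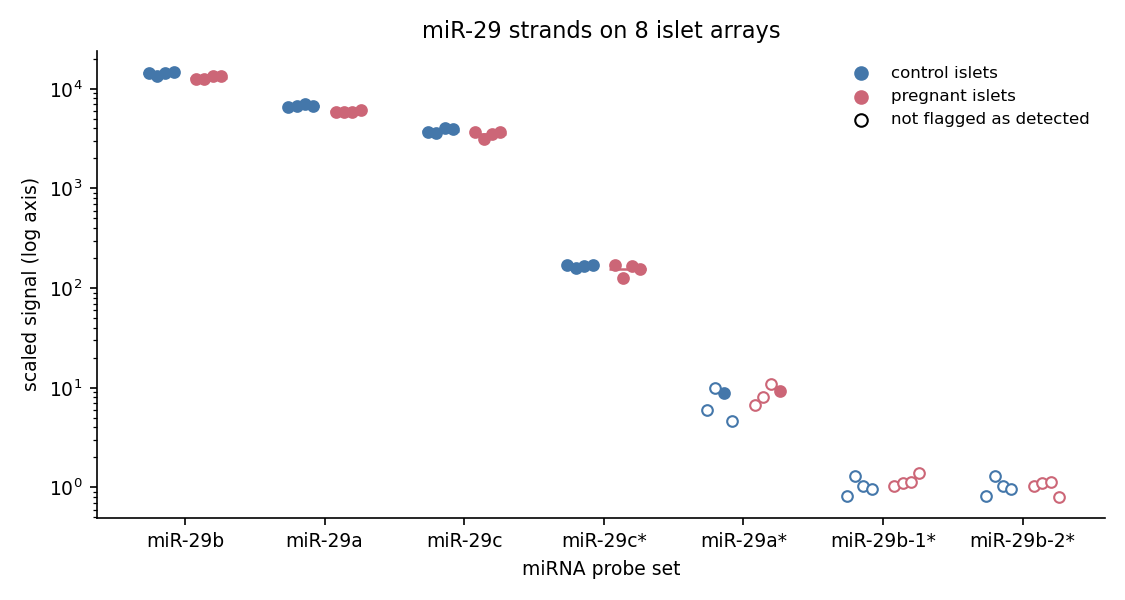
Scaled signal (log axis) of the 7 miR-29 rows on 4 control (blue) and 4 pregnant (red) islet arrays; filled points were flagged as detected, open points were not, and lines mark group means of rows detected on every array of the group. The 3 guides lie between 3115 and 14737, miR-29c* between 127 and 172, and the other minor strands at or below 11.04.

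All 4 detected strands had a slightly lower mean in pregnant islets, by 0.12 to 0.18 on the log2 scale, and none passed the test over all miRNAs. Pregnant and control arrays were compared with limma over the 171 miRNAs detected on at least 4 arrays, and calls required a p below 0.05 after Benjamini-Hochberg adjustment. Of these, 8 were called (4.68%), 4 of them lower in pregnancy (2.34%). With 4 of 4 members negative, 52.0% of all tested miRNAs were negative. The members' median log2 change was -0.13, against -0.02 over all 171.

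MiR-29a, from the chromosome 4 pair, gave the clearest separation. Its scaled signal was 6533, 6670, 6984 and 6722 in control replicates 1 to 4 and 5907, 5885, 5869 and 6165 in pregnant replicates 1 to 4. The groups did not overlap, as was the case, in the direction of lower in pregnancy, for 9.36% of all miRNAs tested. The means were 6727 ± 189 in control and 5957 ± 140 in pregnant islets (SD, n = 4), a log2 change of -0.18 (SE 0.06, 95% interval -0.31 to -0.04), which is 1.13-fold lower. The limma adjusted p was 0.123 and the unadjusted p 0.0151. MiR-29a was the only member of 4 at an unadjusted p under 0.05, a limit that 16.4% of the tested miRNAs passed on the lower side. Leaving out pregnant replicate 2 gave a log2 change of -0.17, and leaving out control replicate 2 one of -0.18.

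MiR-29b can come from both clusters. Its scaled signal was 14507, 13357, 14461 and 14737 in control replicates 1 to 4, and 12598, 12400, 13440 and 13301 in pregnant replicates 1 to 4. The groups overlapped by 1 array each, since control replicate 2 lay below pregnant replicate 3, and pregnant replicate 2 was the lowest of the 8 arrays. The means of 14265 ± 618 and 12935 ± 513 (SD, n = 4) gave a log2 change of -0.14 (SE 0.06, 95% interval -0.29 to 0.01, limma adjusted p = 0.212). Without pregnant replicate 2, the array with the high leukocyte markers, the log2 change was -0.12, and leaving out control replicate 2, with the high stromal markers, gave -0.17.

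MiR-29c and miR-29c*, the strands of one chromosome 13 hairpin, were, like miR-29b and the sum of the 3 guides, lowest on pregnant replicate 2. The scaled signal of miR-29c was 3666, 3585, 4039 and 3936 in control replicates 1 to 4, and 3703, 3115, 3535 and 3678 in pregnant replicates 1 to 4. Pregnant replicate 2 was the lowest of the 8, and the other 3 pregnant arrays fell within or just below the control range. The means of 3806 ± 216 and 3508 ± 272 (SD, n = 4) gave a log2 change of -0.12 (SE 0.08, 95% interval -0.31 to 0.07, limma adjusted p = 0.410). Leaving out pregnant replicate 2 gave -0.06, and leaving out control replicate 2 gave -0.15.

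The scaled signal of the minor strand miR-29c* was 169, 158, 168 and 172 in control replicates 1 to 4, and 169, 127, 166 and 157 in pregnant replicates 1 to 4. Leaving aside pregnant replicate 2, the lowest at 127, the groups spanned nearly the same range. The log2 change of -0.12 (SE 0.10, 95% interval -0.35 to 0.12, limma adjusted p = 0.512) came to -0.03 when that array was left out, and to -0.14 when control replicate 2 was. The part of leukocyte RNA in the values of pregnant replicate 2 was not tested.

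**Figure D2:**
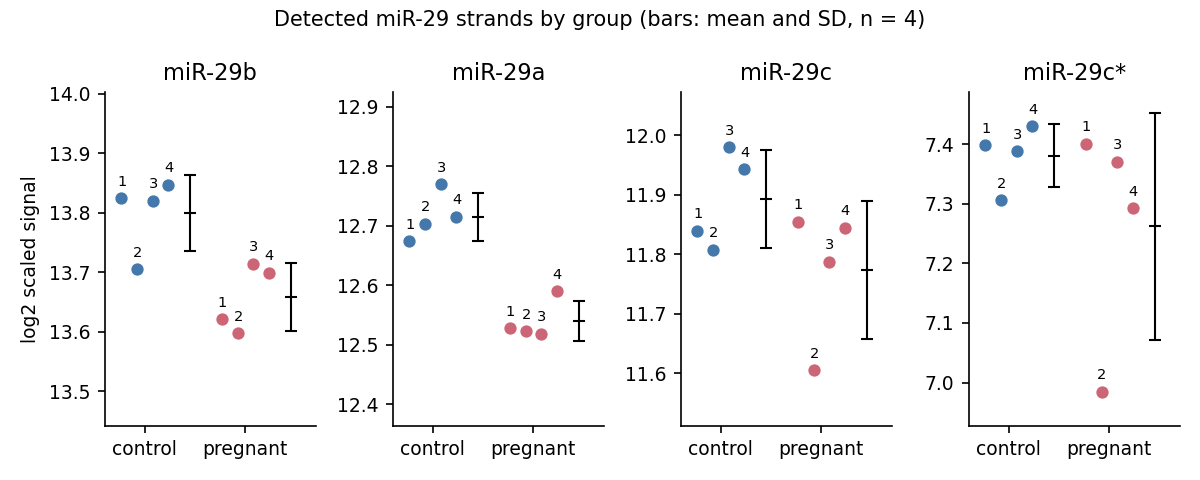
Log2 scaled signal of the 4 detected strands, with replicate numbers beside the points and the mean and SD (n = 4) beside each group; each panel spans the same height on the log2 scale. MiR-29a separates the groups (12.67 to 12.77 against 12.52 to 12.59), and pregnant replicate 2 is the lowest point of miR-29c (11.60) and of miR-29c* (6.98).

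The spread within groups was narrow for these bright strands. MiR-29a had the smallest pooled SD within groups of all 171 tested miRNAs, 0.04 on the log2 scale, and miR-29b ranked 7th from the smallest with 0.06. The median over all tested miRNAs was 0.17. MiR-29c (0.10, 29th from the smallest) and miR-29c* (0.14, 61st) also lay below that median. Limma draws such small spreads toward a common value. With a variance prior that follows signal intensity miR-29a passed (limma adjusted p = 0.0348), while miR-29b (0.0897), miR-29c (0.310) and miR-29c* (0.521) did not. That prior called 11 of all 171 tested miRNAs, 7 of them lower in pregnancy. The main setting called 8, 4 of them lower.

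**Figure D3:**
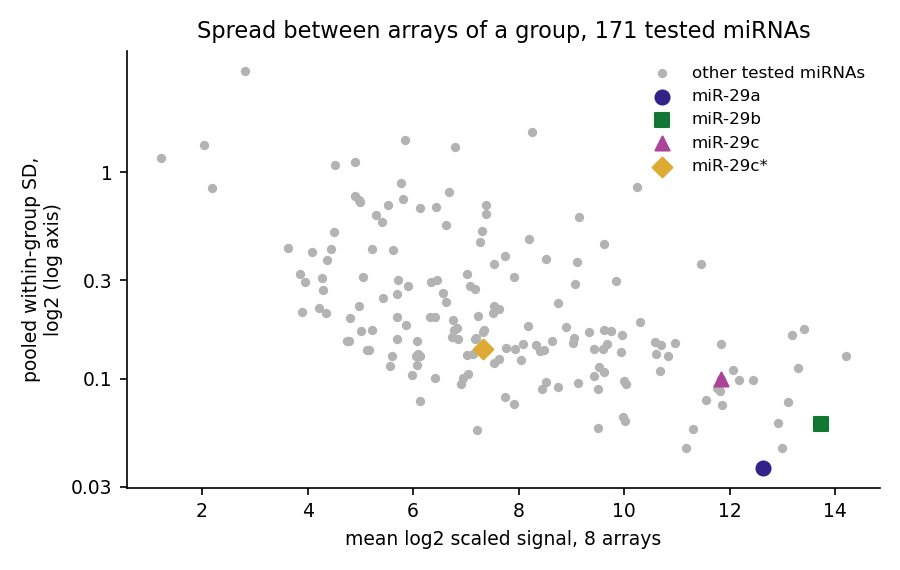
Pooled SD within groups (log2, log axis) against the mean log2 scaled signal over 8 arrays for 171 tested miRNAs (grey) and the 4 detected miR-29 strands (coloured). MiR-29a, at a mean of 12.63, has the smallest SD of all.

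The direction of the changes of miR-29b, miR-29c and miR-29c* depended on which miRNAs set the scaling percentile. Without scaling the log2 changes were -0.17 for miR-29a, -0.14 for miR-29b and -0.12 for both miR-29c and miR-29c*, with limma adjusted p-values of 0.901 to 0.966. When the percentile was taken over all 350 miRNAs, every log2 change moved up by 0.15: miR-29a came to -0.03, and miR-29b, miR-29c and miR-29c* turned to 0.01, 0.03 and 0.03. The median over all tested miRNAs then stood at 0.13 and that of the members at 0.02. Quantile normalization gave miR-29a a log2 change of 0, since its rank was the same on each array. In the authors' deposited log2 values miR-29b read 13.73 on 7 arrays and 13.42 on pregnant replicate 3, and miR-29a took 3 distinct values over the 8 arrays. With those values the log2 changes were -0.15 for miR-29a, -0.08 for miR-29b, -0.24 for miR-29c and -0.02 for miR-29c*, with limma adjusted p-values of 0.256, 0.601, 0.184 and 0.953.

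The array names in the table's header end in digits that no label explains. The first of these digits was read as a row of the slide, which was not checked. On this reading 3 pregnant and 1 control array lay in row 1 and 1 pregnant and 3 control arrays in row 2. Within rows 1 and 2 miR-29a differed by -0.16 and -0.19, and miR-29b by -0.03 and -0.21. MiR-29c differed by -0.06 and -0.07 and miR-29c* by -0.09 and -0.01. With the row as a block the log2 changes of the 4 strands were -0.18, -0.12, -0.06 and -0.05, with limma adjusted p-values of 0.166 to 0.835. With the mean of the 6 tested stromal miRNAs as a covariate they were -0.19, -0.20, -0.23 and -0.27, with limma adjusted p-values of 0.121 to 0.137.

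**Figure D4:**
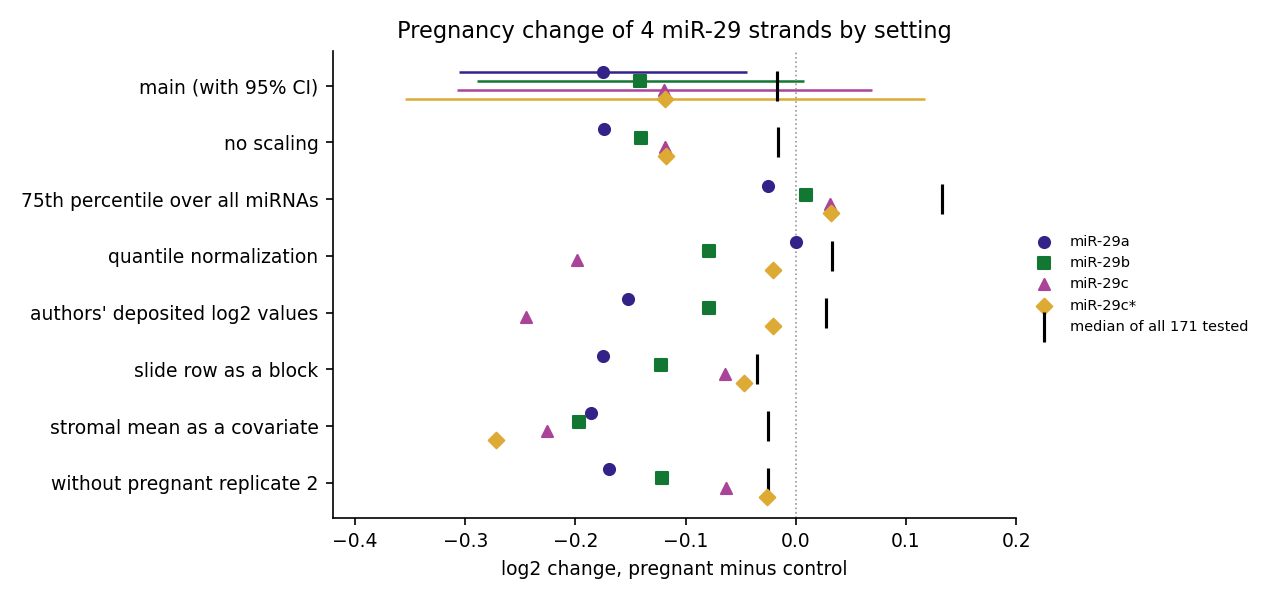
Log2 change (pregnant minus control) of the 4 detected strands under the main setting, with 95% intervals, and 7 alternatives; black bars mark the median of all 171 tested miRNAs. The strands lie below that median under the settings shown, although without pregnant replicate 2 miR-29c* and the median both round to -0.03.

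Ratios between strands on the same array do not depend on the scaling factor, and asked whether the members changed unequally. The 6 pairs of the 4 detected strands were compared with exact 2-sided permutation tests of 4 against 4 arrays, whose smallest possible p is 0.0286. The log2 ratio of the miR-29c guide to its minor strand was 4.44, 4.50, 4.59 and 4.51 in control replicates 1 to 4 and 4.45, 4.62, 4.42 and 4.55 in pregnant replicates 1 to 4. These ranges overlapped almost fully, and the change between the means was -0.0011 with an SE of 0.056 (exact permutation p = 1, also 1 after adjustment for 6 pairs). The signal ratio of 21.4 to 24.6 holds both abundance and probe affinity, so only its change is of use.

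Ratios between the guides overlapped between the groups too. The log2 ratio of miR-29a over miR-29b was -1.08 ± 0.07 in control and -1.12 ± 0.05 in pregnant islets (SD, n = 4), a difference of -0.03 (SE 0.04, exact permutation p = 0.457, adjusted over 6 pairs 0.926). For miR-29a over miR-29c, the closest pair in sequence, it was 0.82 ± 0.05 and 0.77 ± 0.11 (SD, n = 4), a difference of -0.06 (SE 0.06, exact permutation p = 0.343, adjusted 0.926). Here pregnant replicate 2, at 0.92, was the highest of the 8 arrays, and the other 3 pregnant arrays at 0.67 to 0.75 lay below all 4 control arrays at 0.77 to 0.90. Without it the difference was -0.11. For miR-29b over miR-29c the difference was -0.02 with an SE of 0.06 (exact permutation p = 0.771, adjusted 0.926). None of the 6 pairs passed, which does not show that the strands changed equally.

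**Figure D5:**
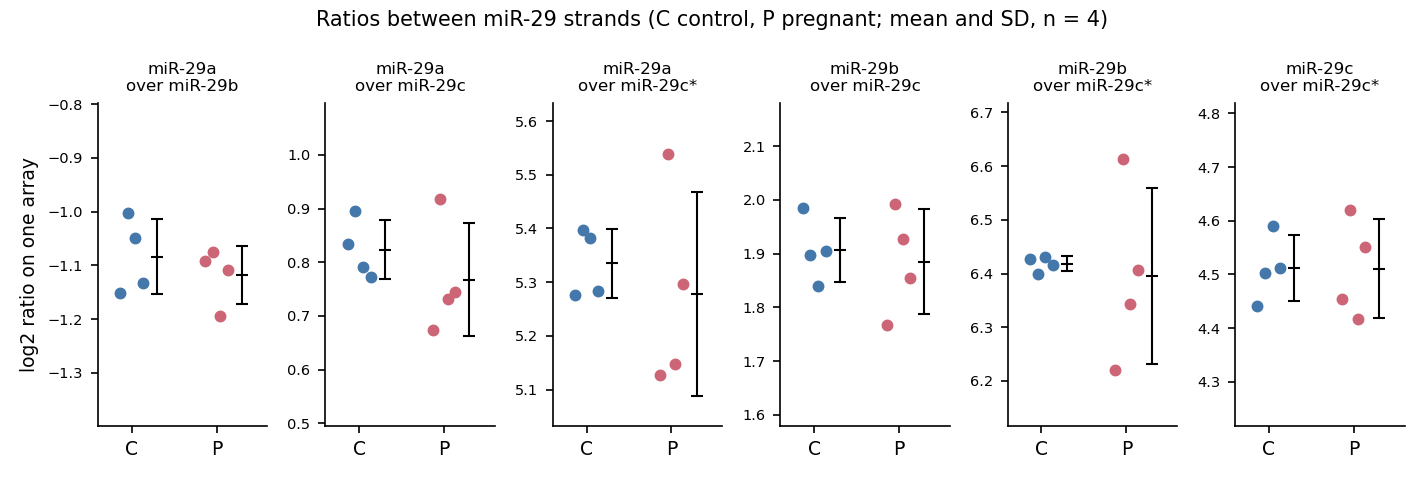
Log2 ratio between 2 strands on the same array for the 6 pairs of detected strands, in control (C) and pregnant (P) islets, with mean and SD (n = 4) beside the points; panels span equal heights. The groups overlap in all 6 panels, and the spread is widest in pregnant islets for the pairs of miR-29a or miR-29b with miR-29c*.

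The other miRNAs whose levels followed each strand most closely were named by Pearson's r over the 8 arrays, as a description without a test, since the points share arrays and scaling. For miR-29a these were miR-322 (r = 0.92), miR-335 (0.90) and let-7i (0.89), and the lowest was miR-27b (-0.89). Of these, miR-322 (log2 change -0.51) and miR-335 (-0.74) were called lower in pregnancy and miR-27b (0.50) higher, with limma adjusted p-values of 0.0204, 0.0430 and 0.0204. Around the group means the r of miR-29a with these 4 fell to between -0.13 and 0.41, so the likeness was mostly the difference between groups. With either of the 2 arrays left out, these r values were 0.88 to 0.92 and, for miR-27b, -0.90 and -0.88. For miR-29b the closest were let-7i (0.81), miR-151 (0.81) and miR-30a* (0.75), and the lowest was miR-872 (-0.82). Around the group means these came to 0.29, 0.56, 0.15 and -0.62. Leaving out pregnant replicate 2 gave 0.81, 0.70, 0.62 and -0.72, and leaving out control replicate 2 gave 0.91, 0.82, 0.98 and -0.85.

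The miR-29c strands had another set of neighbours. MiR-29c was closest to the endocrine miRNAs miR-7a (r = 0.95), miR-375 (0.85) and miR-129 (0.85). Around the group means these 3 came to 0.96, 0.91 and 0.76. Without pregnant replicate 2 the 3 came to 0.85, 0.73 and 0.43, and without control replicate 2 to 0.95, 0.86 and 0.89. MiR-29c* was closest to miR-429 (0.92), let-7e (0.89) and miR-129 (0.88), and around the group means these were 0.90, 0.86 and 0.86. They came to 0.61, 0.66 and 0.12 without pregnant replicate 2 and to 0.95, 0.90 and 0.91 without control replicate 2. The lowest for both strands was the leukocyte miR-142-3p, at -0.81 for miR-29c and -0.98 for miR-29c*, and at -0.82 and -0.99 around the group means. These r values were -0.13 and -0.77 without pregnant replicate 2, and -0.81 and -0.98 without control replicate 2. Among the members, miR-29c and miR-29c* correlated at 0.87, at 0.84 around the group means, at 0.51 without pregnant replicate 2 and at 0.87 without control replicate 2. MiR-29a and miR-29b correlated at 0.81 but at 0.26 around the group means, with 0.76 and 0.88 when the same arrays were left out. For miR-29a and miR-29c* the values were 0.44, 0.09, 0.14 and 0.48 in the same order. Those of miR-29a and miR-29c were 0.70, 0.59, 0.67 and 0.77, and those of miR-29b and miR-29c 0.75, 0.59, 0.60 and 0.74. MiR-29b and miR-29c* gave 0.66, 0.57, 0.47 and 0.66. Around the group means these last 3 pairs, which join the miR-29c strands to the other guides, thus stood above miR-29a with miR-29b.

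Other lists give the scale of a change in these arrays. In the endocrine list 1 of 10 tested miRNAs fell (miR-335), none rose, and the median log2 change was -0.08. In the let-7 and miR-98 family, which like miR-29 has several bright members, 0 of 9 tested members passed, the median was -0.04 and the range -0.21 to 0.17. In the miR-30 family 1 of 8 fell (miR-30a*), with a median of -0.13. The 6 tested stromal miRNAs had a median of -0.66 and the 6 tested leukocyte miRNAs one of 0.11, with 0 past the threshold in either. Beside these, the 4 tested miR-29 strands ranged from -0.18 to -0.12.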

How the data were processed

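Islet miRNAs were measured on 8 Agilent 1-colour arrays, 4 control and 4 pregnant. The deposited table holds 1 linear intensity for each of 350 miRNAs and 22 control features, a detection flag, and log2 values that the authors normalized between arrays, per the file headers; how the scans were extracted is not given in the sources used. The series' value table equals these deposited log2 values within 4e-10.

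For each array the 75th percentile of the 153 miRNAs detected throughout was taken, and intensities were divided by it, multiplied by the mean percentile (net factors 0.810 to 1.30), floored at 0.81, the lowest scaled detected signal, and put on the log2 scale. The 171 miRNAs detected on at least 4 arrays were tested 2-sided by lmFit and eBayes of limma 3.58.1 (R 4.3.3), with Benjamini-Hochberg adjustment over all 171. The fit was tested on simulated data with planted changes that were all larger than those of the miR-29 strands, so recovery of changes of their size was not tested. Ratios between members were compared by exact permutation in scipy 1.17.1 under Python 3.11.15. Of the 350 miRNAs, 155 were detected on no array.

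Alternatives changed the scaling, the detection filter, the floor, the variance prior, the blocks and a stromal covariate, or left out each array. Replicate numbers were given in table order, and the labels state no pairing of arrays. Every miR-29 row was named, with the 3 most alike and the 1 least alike other miRNA for each tested member. Members and lists were chosen with earlier results of these data known.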

Additional observations from a re-analysis of the deposited data

Results flagged for a closer look

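The log2 scaled signal of miR-29a in pregnant replicate 4, 12.59, lay apart from the other 3 pregnant arrays (12.52 to 12.53). Its gap to the nearest array was 0.871 of the range of the group, above the 95% critical value of 0.829 for 4 samples. It remained below all 4 control arrays. Of 20 groups of 4 values checked, 1 had such an array, and chance gives about 1 in 20.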

How the results depend on the processing

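The 4 detected strands were recomputed under 19 other settings, which gave 76 log2 changes, of which 72 were negative and 1 passed the threshold. That one was miR-29a with a variance prior that follows intensity (-0.18, limma adjusted p = 0.0348), a setting that called 11 of the 171 tested miRNAs. Scaling to the percentile over all miRNAs turned miR-29b to 0.0093, miR-29c to 0.0308 and miR-29c* to 0.0320; the shift of 0.15 applies to all miRNAs, so the changes relative to the median did not move. Leaving out 1 array at a time, the log2 change ranged from -0.19 to -0.16 for miR-29a, -0.17 to -0.12 for miR-29b, -0.15 to -0.06 for miR-29c and -0.16 to -0.03 for miR-29c*, with the smallest size for the last 2 without pregnant replicate 2. The 8 calls over all miRNAs became 2 with the percentile over all miRNAs, 0 without scaling, 0 without a detection filter, 23 with slide rows as blocks and 1 with the stromal covariate; without 1 array they ranged from 0 to 19. The 19 came without pregnant replicate 2, 0 without control replicates 1, 2 or 4 or pregnant replicates 1 or 4, 1 without control replicate 3 and 2 without pregnant replicate 3. Rises and falls split 4 to 4 in the main setting, 3 to 7 after quantile normalization, 1 to 5 in the authors' values and 4 to 19 with the row block. With the replicate block the changes were -0.18, -0.14, -0.12 and -0.12 (limma adjusted p = 0.221, 0.271, 0.373 and 0.455) and 10 miRNAs were called. Deviations from the group means correlated at -0.14, 0.17, -0.28 and -0.49 between same-numbered arrays. The labels state no pairing, and these correlations cannot decide whether arrays were paired. Of 72 ratio alternatives 12 reversed and 0 passed. Quantile normalization gave 0.0790 for miR-29a over miR-29b, 0.198 for miR-29a over miR-29c, 0.0206 for miR-29a over miR-29c* and 0.119 for miR-29b over miR-29c, and the authors' values 0.0922 for miR-29a over miR-29c and 0.166 for miR-29b over miR-29c. Without 1 array, miR-29b over miR-29c ranged from -0.0575 to 0.0182, miR-29b over miR-29c* from -0.0951 to 0.0359 and miR-29c over miR-29c* from -0.0376 to 0.0302. Other than the rank-fixed quantile values and the common shift, the cause was not tested. Detection on fewer than 4 arrays leaves miR-29a*, miR-29b-1* and miR-29b-2* without a comparison.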

Other observations

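The 20 miRNAs with the highest signals outside the miR-29 family, picked after their values were seen, had log2 changes in pregnancy of -0.38 to 0.50 with a median of -0.05. By limma 2 of them rose and 0 fell, and 13 of 20 were negative. The erythroid pair miR-144 and miR-451 had a median log2 change of 1.42, with a summed scaled signal of 266 to 732 in control and 651 to 1653 in pregnant islets, and neither passed the test.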
